A study of Mus musculus with 20 samples.

Results

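Sarcomere and Z-disc genes were followed as a set of 32 members, named by symbol for their known place in the contractile apparatus. They were chosen with earlier results of these data known. All 32 were among the 21705 genes measured, and all 32 were tested. The measurements are bulk RNA sequencing of heart ventricle from male C57Bl/J6 mice in 4 groups of 5 libraries. Knockout mice (Acsl1H-/-) had lost Acsl1 in the heart. Its enzyme links long-chain fatty acids to coenzyme A before they are burned. Control mice were littermates with a floxed but intact gene (Acsl1flox/flox). Mice of both genotypes were given tamoxifen at 75 mg/kg on 4 days from an age of 6 to 8 weeks, and the tissue was taken 2 weeks afterwards. One arm of each genotype had daily rapamycin, which blocks the kinase mTOR, at 1 mg/kg for 2 weeks, and the other had vehicle, a mix of saline buffer, ethanol, Tween 20 and PEG-400. The 4 groups were thus control vehicle, knockout vehicle, control rapamycin and knockout rapamycin. The labels name neither the Cre line nor its promoter, and loss of Acsl1 cannot be told apart from any effect of the Cre.

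The sarcomere is the repeating contractile unit of striated muscle, in which thick filaments of myosin pull on thin filaments of actin. Thin filaments are anchored with their ends at the Z-disc, a lattice built on alpha-actinin, and titin spans from the Z-disc to the M-band at the centre of the thick filaments. Calcium starts contraction through troponin and tropomyosin on the thin filament. The Z-disc also holds LIM-domain and scaffold proteins that pass on mechanical load, desmin filaments tie neighbouring Z-discs together, and MuRF ubiquitin ligases mark sarcomere proteins for breakdown. In heart, mutations of many of these genes cause cardiomyopathy.

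Each value is an expression estimate per gene that the authors scaled to an upper quartile of about 1000 in every library. It is not divided by transcript length, so levels of different genes are compared below only per kilobase. Step sizes of low values implied 11.5 to 21.1 M reads per library, and 14592 to 15605 genes lay above 0. Acsl1 lay between 6373 and 16661 in the 10 control libraries and between 631 and 1950 in the 10 knockout libraries, so the libraries fitted their genotype labels. All 10 markers of ventricular cardiomyocytes were detected, 5 of which are members, and their summed level was 2.26 to 2.57 M in control vehicle and 2.29 to 2.39 M in knockout vehicle libraries. Single markers went in either direction within these sums. Medians in control and knockout vehicle were 389059 and 709849 for Myh6, and 368444 and 271547 for Myl2. Control vehicle libraries 1 and 3 stood apart. Their long-minus-short score, the mean log2 deviation of 3273 long transcripts minus that of 3271 short ones with the members left out, was -0.94 and -1.04, against -0.41 to 0.52 in the other 18 libraries. They also lay at -73.4 and -84.6 on a first principal component that held 33.7% of the variance. Log2 changes of single members in knockout hearts under vehicle are given with and without these libraries.

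No member passed the threshold in any of the 7 comparisons, with limma on log2(value + 1) and an adjusted p under 0.05 over all 13548 tested genes. In knockout against control hearts under vehicle 0 of 32 members were called, where 0.244% of all genes were. Unadjusted p-values under 0.05 were found for 13 members, 9 higher and 4 lower, and for 31.8% of all genes. Without control vehicle libraries 1 and 3 it was 1 member (Pdlim5) and 6.75% of all genes. Under rapamycin the knockout comparison called 0 members and 0.0221% of all genes, with 1 member (Tcap, lower) and 2.97% of all genes at an unadjusted p under 0.05. Rapamycin against vehicle called 0 members and 0% of all genes in control hearts, with 7 members, all higher, and 14.9% of all genes at an unadjusted p under 0.05. These were Pdlim3, Flnc, Xirp2, Synpo2l, Xirp1, Ttn and Pdlim5, with log2 changes from 0.21 (Pdlim5) to 1.45 (Xirp2). Without control vehicle libraries 1 and 3 only Pdlim3 was under 0.05, with 3.47% of all genes. In knockout hearts it called 0 members and 0.00738% of all genes, with 2 members (Pdlim3, higher, and Mybpc3, lower) and 5.71% of all genes at an unadjusted p under 0.05. The interaction of genotype and drug called 0 members and 0% of all genes, with 3 members, Xirp2, Flnc and Pdlim5, all below 0, and 8.30% of all genes at an unadjusted p under 0.05, or 0 members and 3.55% without the same libraries.

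Averaged over the drug arms, knockout against control called 0 members and 0.443% of all genes, and averaged over genotypes, rapamycin against vehicle called 0 members and 0.125% of all genes. At an unadjusted p under 0.05 these comparisons held 8 and 3 members, beside 19.1% and 9.23% of all genes, and 1 and 2 members, beside 7.46% and 6.95%, without control vehicle 1 and 3. In a bulk sample such as these, fewer cells of a type and less RNA per cell cannot be told apart. The groups of no member were without overlap in any of the 4 comparisons between groups. Groups without overlap were found for 2.32% of all genes in the knockout comparison under vehicle and 0.878% under rapamycin, and in the rapamycin comparison for 1.46% in control and 1.85% in knockout hearts. The members' median log2 change was 0.11 in knockout hearts under vehicle (all genes 0.07) and -0.07 under rapamycin (all genes -0.02). For rapamycin it was 0.09 in control hearts (all genes 0.07) and 0.00 in knockout hearts (all genes -0.02), and for the interaction -0.12 (all genes -0.09). The members' medians thus lay near those of all genes. Knockout under vehicle and rapamycin in control share the control vehicle libraries, and knockout under vehicle and rapamycin in knockout share the knockout vehicle libraries.

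**Figure D1:**
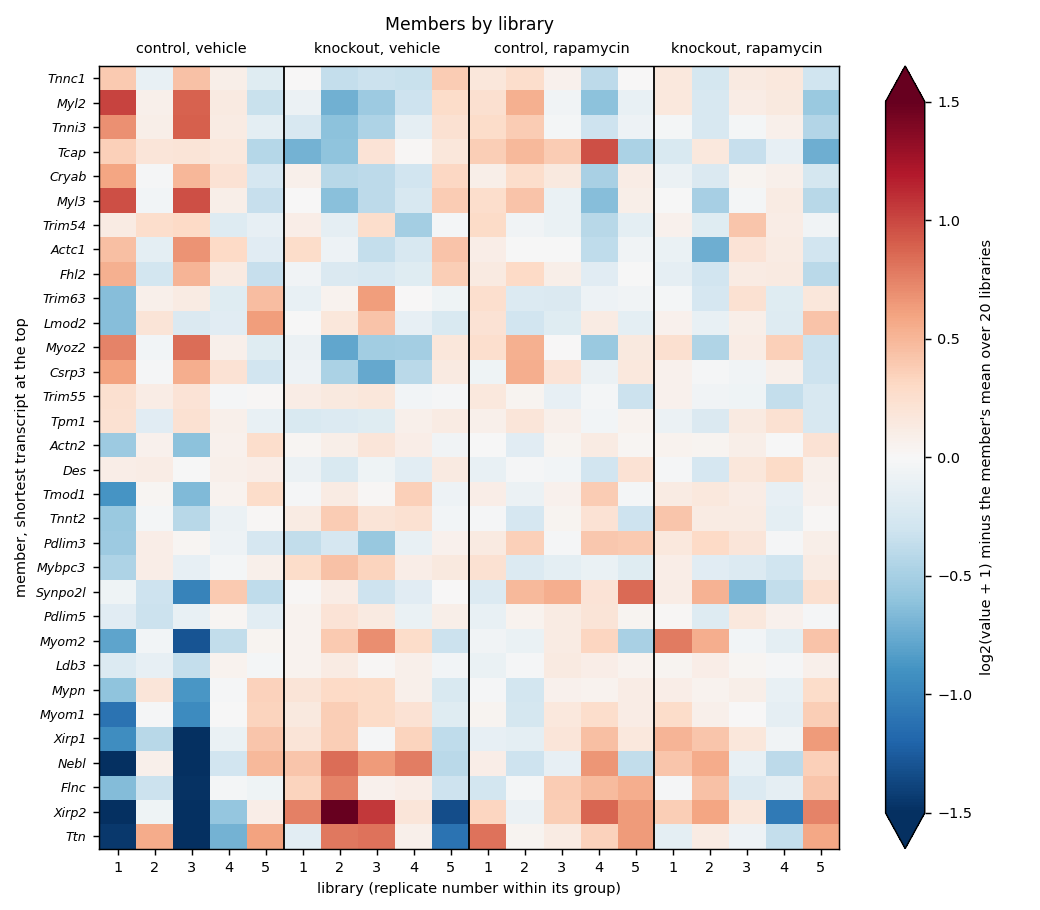
Heat map of the 32 members (rows, shortest transcript at the top) in the 20 libraries (columns, by group and replicate number), coloured by log2(value + 1) minus the member's mean over the 20 libraries. Control vehicle libraries 1 and 3 show dark blue for the longest members and red for many of the shortest, and colours at either end of the scale stand for deviations beyond 1.5.

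Of the 6 thick filament and elastic genes, 4 were higher in knockout hearts under vehicle and 2 lower, with a median log2 change of 0.43, and 0 were called. Titin (Ttn), the giant spring of the sarcomere, had values of 19223, 77259, 18246, 32080.5 and 79321 in control vehicle and 47100.3, 90584, 91797, 55425 and 24403 in knockout vehicle libraries 1 to 5. Its values in control rapamycin were 91884, 53701, 57201, 66624 and 81772, and in knockout rapamycin 47354, 57181, 49667, 41039.5 and 78361. Libraries 1 and 3 of control vehicle and library 5 of knockout vehicle were the lowest of the 20, and the groups overlapped. The log2 change of Ttn in knockout hearts was 0.59 (SE 0.40, adjusted p = 0.298) under vehicle and -0.37 (SE 0.40, adjusted p = 1.00) under rapamycin. In the 4 sequencing pools it was 0.92, 0.23, 1.38 and -0.52 under vehicle and -0.68, -0.34, -0.20 and -0.53 under rapamycin. Control vehicle 3 was the only control vehicle library of pool 3, and control vehicle 1 was 1 of 2 in pool 1. Pool values that use control vehicle, here and below, include these libraries in those pools. The vehicle value turned to -0.07 without control vehicle libraries 1 and 3.

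Myosin-binding protein C (Mybpc3), which tunes how cross-bridges form, was at 54857, 81026, 69652, 74398 and 79633 in control vehicle and 91765, 102669, 95781, 80996 and 84102 in knockout vehicle libraries. It was at 89041, 65485, 68322, 70607 and 66838 in control rapamycin and 81039, 67354, 65716, 61668 and 82256 in knockout rapamycin libraries. Knockout vehicle was the highest group, at 91063 ± 8764 (mean ± SD, n = 5), against 71913 ± 10546, 72059 ± 9682 and 71607 ± 9406 in control vehicle, control rapamycin and knockout rapamycin. It overlapped control vehicle only through control library 2 and knockout library 4, which lay side by side. The log2 change was 0.35 (SE 0.13, adjusted p = 0.107) for knockout under vehicle, with pool values of 0.52, 0.34, 0.37 and 0.02. For rapamycin in knockout hearts it was -0.35 (SE 0.13, adjusted p = 0.615), one of the 2 smallest p-values of the members in that comparison, and the pool values were -0.45, -0.34, -0.45 and -0.19. Without control vehicle libraries 1 and 3 the knockout change was 0.21 (SE 0.13, adjusted p = 0.784).

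The ventricular regulatory light chain Myl2, which sits on the neck of myosin, pointed the other way. It had values of 681946, 356328, 622181, 368444 and 267552 in control vehicle and 317850, 204684, 230286, 271547 and 407592 in knockout vehicle libraries, and the highest of all 20 values were those of control libraries 1 and 3. Under rapamycin it lay from 218906 to 487845 (median 325277) in control and from 228495 to 375113 (median 362289) in knockout libraries. The log2 change in knockout hearts under vehicle was -0.63 (SE 0.26, adjusted p = 0.122), and without control vehicle libraries 1 and 3 it was -0.24 (SE 0.26, adjusted p = 0.864). The essential light chain Myl3 had a change of -0.50 (SE 0.26, adjusted p = 0.186), with values from 174736 to 435201 (median 235912) in control vehicle and from 144242 to 288500 (median 188245) in knockout vehicle libraries, and without control vehicle 1 and 3 it was -0.07 (SE 0.24, adjusted p = 0.955). The myomesins cross-link thick filaments at the M-band. Myom2 was at 13272, 22285, 9376, 17727 and 23624 in control vehicle and 23868, 30033, 37207, 27786 and 18299 in knockout vehicle libraries, a change of 0.71 (SE 0.24, adjusted p = 0.102). Control libraries 1 and 3 were its lowest in that group, and without them the change was 0.34 (SE 0.23, adjusted p = 0.805). Averaged over the drug arms Myom2 had the smallest p-value of the members, with a log2 change of 0.53 (SE 0.17, adjusted p = 0.18), or 0.35 (SE 0.15, adjusted p = 0.616) without the same libraries, and the pool values under vehicle were 0.64, 0.43, 1.48 and 0.23. Myom1 had a change of 0.52 (SE 0.22, adjusted p = 0.123) under vehicle, which was 0.07 (SE 0.15, adjusted p = 0.935) without them.

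Of these 6 genes, Mybpc3, Myl2, Myom1 and Myom2 passed for knockout under vehicle when control vehicle library 5 was left out, with changes of 0.39 (SE 0.14, adjusted p = 0.0486), -0.81 (SE 0.26, adjusted p = 0.0397), 0.69 (SE 0.20, adjusted p = 0.0348) and 0.84 (SE 0.25, adjusted p = 0.0347). Myom2 passed as well without knockout vehicle library 5, at 0.85 (SE 0.25, adjusted p = 0.0369). Those fits kept control vehicle 1 and 3 and called far more of all genes, as given below. None of the 6 passed without control vehicle 1 and 3, where 3 were higher and 3 lower and their median was 0.00.

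Thin filament genes were divided by direction in knockout hearts under vehicle, with 4 of the 8 higher and 4 lower and a median log2 change of -0.02, and 0 were called. Cardiac troponin I (Tnni3), the inhibitory subunit that releases actin when calcium binds, was at 252020, 165550, 290668, 169696 and 140984 in control vehicle and 132537, 101629, 113278, 141990 and 183183 in knockout vehicle libraries. Under rapamycin it was at 189363, 203802, 153423, 126228 and 148336 in control and 152851, 132072, 152443, 165091 and 114723 in knockout libraries. Control vehicle libraries 1 and 3 held the highest values, and the other 3 controls overlapped the knockout group. The log2 change was -0.57 (SE 0.20, adjusted p = 0.104) under vehicle and -0.19 (SE 0.20, adjusted p = 1.00) under rapamycin, with pool values of -0.64, -0.70, -1.01 and 0.01 and -0.52, -0.07, -0.01 and -0.11. Without control vehicle libraries 1 and 3 the vehicle value was -0.26 (SE 0.19, adjusted p = 0.811), and with control vehicle 5 or knockout vehicle 5 left out Tnni3 passed, at -0.69 (SE 0.20, adjusted p = 0.0345) and -0.69 (SE 0.20, adjusted p = 0.0369).

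Cardiac actin (Actc1), the main thin filament protein, was at 435384, 287788, 506640, 393751 and 282795 in control vehicle and 385093, 303173, 249773, 269699 and 429628 in knockout vehicle libraries, a change of -0.21 (SE 0.21, adjusted p = 0.466) that was 0.01 without control vehicle 1 and 3. It lay from 245828 to 341645 (median 316935) in control rapamycin and from 191369 to 366564 (median 296784) in knockout rapamycin libraries, and all 4 groups overlapped. Actin genes are close copies of each other, so the split of reads between Actc1 and the skeletal gene Acta1 is uncertain. Nebulette (Nebl), which reaches from the Z-disc along the thin filament, had the smallest p-value of the members in knockout hearts under vehicle. Its values were 942, 3131, 949, 2446 and 4155 in control vehicle and 3958, 5334, 4616, 5046 and 2242 in knockout vehicle libraries. Control libraries 1 and 3 were the lowest of the 20, and 4 of the 5 knockout libraries lay above every control library but library 5. The log2 change was 1.05 (SE 0.36, adjusted p = 0.101) under vehicle and 0.17 (SE 0.36, adjusted p = 1.00) under rapamycin. It was above 0 in every pool, at 1.38, 0.77, 1.76 and 0.28 and 0.46, 0.24, 0.02 and 0.35, with control vehicle 1 in pool 1 and control vehicle 3 in pool 3. Without control vehicle 1 and 3 it was 0.36 (SE 0.28, adjusted p = 0.837), and without control vehicle 5 or knockout vehicle 5 it passed, at 1.33 (SE 0.34, adjusted p = 0.0322) and 1.27 (SE 0.36, adjusted p = 0.0364).

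Troponin T (Tnnt2), which ties troponin to tropomyosin, was at 107139 ± 18215 in control vehicle and 139694 ± 14826 in knockout vehicle libraries (mean ± SD, n = 5 each), a log2 change of 0.39 (SE 0.14, adjusted p = 0.106) that was above 0 in all 4 pools, at 0.45, 0.41, 0.49 and 0.22. Its change under rapamycin was 0.17 (SE 0.14, adjusted p = 1.00), with pool values of 0.15, 0.43, 0.08 and 0.25. Tnnt2 passed without control vehicle 5, at 0.45 (SE 0.15, adjusted p = 0.0424), and without knockout vehicle 5, at 0.45 (SE 0.15, adjusted p = 0.0463), while without control vehicle 1 and 3 it was 0.21 (SE 0.15, adjusted p = 0.806). Of the other thin filament genes, the calcium sensor troponin C (Tnnc1) had a log2 change of -0.25 in knockout hearts under vehicle, and alpha-tropomyosin (Tpm1) one of -0.14. The pointed-end cap tropomodulin (Tmod1) had 0.32 and the filament elongator leiomodin (Lmod2) 0.09. None of these last 4 had an unadjusted p under 0.05, and without control vehicle 1 and 3 they were -0.06 for Tnnc1, -0.02 for Tpm1, -0.04 for Tmod1 and -0.17 for Lmod2. The median of the 8 was then -0.03.

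Z-disc genes were 6 higher and 5 lower of 11 in knockout hearts under vehicle, with a median log2 change of 0.18, and 8 were lower under rapamycin, with a median of -0.11. None was called in either arm, and without control vehicle 1 and 3 the vehicle median was -0.04, with 5 higher and 6 lower. Muscle LIM protein (Csrp3), a stretch-sensing partner of alpha-actinin and telethonin, had values of 49152, 32084, 47229.7, 37852 and 26637 in control vehicle and 30756, 23396, 19076, 24528 and 35756 in knockout vehicle libraries. Under rapamycin it had 31049, 47284, 37287, 30580.2 and 36189 in control and 34070.2, 32000.0, 31299, 34280.1 and 26273 in knockout libraries. The 3 lowest of the 20 values were in knockout vehicle, while its libraries 1 and 5 lay within the control range. The log2 change was -0.53 (SE 0.18, adjusted p = 0.102) under vehicle, below 0 in all 4 pools at -0.49, -0.46, -0.85 and -0.12, and -0.20 (SE 0.18, adjusted p = 1.00) under rapamycin. Averaged over the drug arms it was -0.36 (SE 0.13, adjusted p = 0.209), or -0.24 (SE 0.12, adjusted p = 0.693) without control vehicle 1 and 3. Without control vehicle 1 and 3 the vehicle value was -0.29 (SE 0.18, adjusted p = 0.793), and without control vehicle 5 or knockout vehicle 5 it passed, at -0.65 (SE 0.18, adjusted p = 0.0323) and -0.64 (SE 0.18, adjusted p = 0.0359).

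Alpha-actinin (Actn2), the core cross-linker of the lattice, was at 33658, 51423, 32044, 51541 and 59239.5 in control vehicle and from 47445 to 55857 (median 52130.4) in knockout vehicle libraries. Controls 1 and 3 were the lowest of all 20 libraries, and the log2 change of 0.22 (SE 0.14, adjusted p = 0.27) turned to -0.06 without them. Filamin C (Flnc), an actin cross-linker of Z-disc and membrane, was at 4411, 5534, 2466, 6741 and 6611 in control vehicle and 8668, 11577, 7211, 7405 and 5561 in knockout vehicle libraries. It was at 5707, 6766, 8989.9, 9601 and 10059 in control rapamycin and 6835, 9386, 5967, 6304 and 9168 in knockout rapamycin libraries. Control vehicle was the lowest group, though it overlapped each of the others. The log2 change of Flnc was 0.69 (SE 0.25, adjusted p = 0.105) for knockout under vehicle, 0.73 (SE 0.25, adjusted p = 0.328) for rapamycin in control hearts and -0.81 (SE 0.35, adjusted p = 0.523) for the interaction. Without control vehicle 1 and 3 these were 0.32, 0.36 and -0.44, and Flnc passed in the knockout comparison without control vehicle 5 (0.81, adjusted p = 0.0389) and without knockout vehicle 5 (0.82, adjusted p = 0.0402).

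Telethonin (Tcap) caps titin at the Z-disc, and it had the smallest p-value of the members in the knockout comparison under rapamycin. Its values were 33475, 36485, 33776, 50657 and 18694 in control rapamycin and 22105, 29067, 20505, 23933 and 15714 in knockout rapamycin libraries, with control library 4 the highest of all 20 and control library 5 inside the knockout range. The log2 change was -0.60 (SE 0.24, adjusted p = 1.00) under rapamycin and -0.28 (SE 0.24, adjusted p = 0.406) under vehicle, where it was -0.16 without control vehicle 1 and 3, and the pool values under rapamycin were -0.20, -0.96, -0.72 and 0.05. Synpo2l, a Z-disc protein bound to actin, came next, at 2693, 4363, 4548, 3597 and 5587 in control rapamycin and 3372, 4481, 1935, 2400.3 and 3669 in knockout rapamycin libraries, a change of -0.41 (SE 0.24, adjusted p = 1.00). The LIM-only protein Fhl2, a titin-bound adaptor, lay from 40392 to 74406 (median 56608) in control vehicle, from 43529 to 66330.4 (median 45515) in knockout vehicle, from 45694 to 63252 (median 54600.4) in control rapamycin and from 38796 to 56751 (median 47029) in knockout rapamycin libraries. These ranges overlapped throughout, and the knockout change under vehicle was -0.17 (SE 0.18, adjusted p = 0.49), which became 0.10 without control vehicle 1 and 3.

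Calsarcin-1 (Myoz2), which binds calcineurin at the Z-disc, had a log2 change of -0.63 (SE 0.24, adjusted p = 0.11) in knockout hearts under vehicle, with pool values of -0.50, -0.74, -1.01 and -0.33. It passed without control vehicle 5, at -0.75 (SE 0.25, adjusted p = 0.0412), and without knockout vehicle 5, at -0.76 (SE 0.24, adjusted p = 0.0416), and was -0.29 (SE 0.24, adjusted p = 0.838) without control vehicle 1 and 3. The PDZ and LIM scaffold Pdlim5 had 0.22 (SE 0.09, adjusted p = 0.124) under vehicle and -0.28 (SE 0.13, adjusted p = 0.523) for the interaction, which were 0.23 and -0.28 without those 2 controls. Cypher (Ldb3), another such scaffold, had 0.18 and myopalladin (Mypn) 0.32 under vehicle, neither with an unadjusted p under 0.05. These were 0.08 and -0.04 without the same controls.

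Among the genes of filaments, chaperones and the intercalated disc, Xirp2 had the widest range. It encodes a Xin-repeat protein that binds actin at the intercalated disc. Its values were 1096, 5171, 1099.8, 3639 and 5829 in control vehicle and 9124, 16062, 11296, 6162 and 2149 in knockout vehicle libraries. It had 6791, 5109.5, 7022, 9947 and 8432 in control rapamycin and 6994, 8141, 6084, 2594 and 9056 in knockout rapamycin libraries. Controls 1 and 3 under vehicle were the lowest of the 20 libraries, knockout vehicle 2 was the highest, and knockout vehicle 5 lay among the controls. The log2 change was 1.47 (SE 0.52, adjusted p = 0.104) for knockout under vehicle and 1.45 (SE 0.52, adjusted p = 0.328) for rapamycin in control hearts. For knockout under rapamycin it was -0.27 (SE 0.52, adjusted p = 1.00), and the interaction, -1.74 (SE 0.73, adjusted p = 0.523), had the smallest p-value of the members in that comparison. In the 4 pools the vehicle change was 2.19, 1.63, 2.16 and 0.08, and the interaction was -1.93, -1.66, -2.37 and -0.88. Without control vehicle 1 and 3 the vehicle change was 0.62 (SE 0.48, adjusted p = 0.831), that of rapamycin in control hearts 0.60 and the interaction -0.89 (SE 0.64, adjusted p = 0.999). Without control vehicle 5 or knockout vehicle 5 the vehicle change passed, at 1.76 (SE 0.53, adjusted p = 0.0353) and 1.92 (SE 0.47, adjusted p = 0.0359).

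The related gene Xirp1 had a log2 change of 0.64 (SE 0.27, adjusted p = 0.125) for knockout under vehicle and 0.64 (SE 0.27, adjusted p = 0.33) for rapamycin in control hearts, and it passed the first comparison without control vehicle 5, at 0.88 (SE 0.24, adjusted p = 0.0323). These changes were 0.13 (SE 0.20, adjusted p = 0.903) and 0.13 (SE 0.20, adjusted p = 1.00) without control vehicle 1 and 3. Desmin (Des), the intermediate filament that links Z-discs, was at 81143, 81813, 75661, 80070.0 and 81062 in control vehicle and from 65013 to 83583 (median 71296) in knockout vehicle libraries, and from 62033 to 88105 (median 74039) and from 63515 to 92849 (median 80206) in control and knockout rapamycin libraries. Its control vehicle values were the tightest of any member in that group, and its change was -0.15 (SE 0.12, adjusted p = 0.351), or -0.17 without control vehicle 1 and 3. Alpha-B-crystallin (Cryab), the small heat shock protein that guards desmin, was at 91815, 60096, 85897, 70673 and 51154 in control vehicle and 64243, 45505, 46129, 49747 and 75108 in knockout vehicle libraries. The log2 change of Cryab was -0.35 (SE 0.18, adjusted p = 0.175), and -0.13 without control vehicle 1 and 3, which were its highest libraries. It lay from 43478 to 72828 (median 65329) in control rapamycin and from 50585 to 63802 (median 56903) in knockout rapamycin libraries.

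The 3 MuRF ligases had narrower changes than any other role in both arms, within -0.14 and 0.13 on the log2 scale for knockout under vehicle and -0.08 and 0.16 under rapamycin. MuRF1 (Trim63), the ligase induced in muscle atrophy, was at 3596, 5909, 6102, 4937 and 7736 in control vehicle and 5165, 5825, 8642, 5639 and 5353 in knockout vehicle libraries. It lay from 4826 to 6673 (median 5289) in control rapamycin and from 4702 to 6557 (median 5499) in knockout rapamycin libraries, so all 4 groups overlapped. Its change was 0.13 (SE 0.18, adjusted p = 0.603) under vehicle (-0.02 without control vehicle 1 and 3) and 0.05 (SE 0.18, adjusted p = 1.00) under rapamycin, and that for rapamycin averaged over genotypes was -0.07 (SE 0.12, adjusted p = 0.842). MuRF2 (Trim55) lay from 1235 to 1478 (median 1348) in control vehicle, from 1214 to 1406 (median 1352) in knockout vehicle, from 1002 to 1389 (median 1218) in control rapamycin and from 978 to 1303 (median 1191) in knockout rapamycin libraries. Averaged over genotypes its change with rapamycin was -0.19 (SE 0.07, adjusted p = 0.423), the second smallest p-value of the members in that comparison. In the 4 pools that change was -0.17, -0.09, -0.14 and -0.26 in knockout hearts and 0.04, -0.11, -0.33 and -0.33 in control hearts. MuRF3 (Trim54) had -0.14 for knockout under vehicle, and -0.04 without control vehicle 1 and 3.

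**Figure D2:**
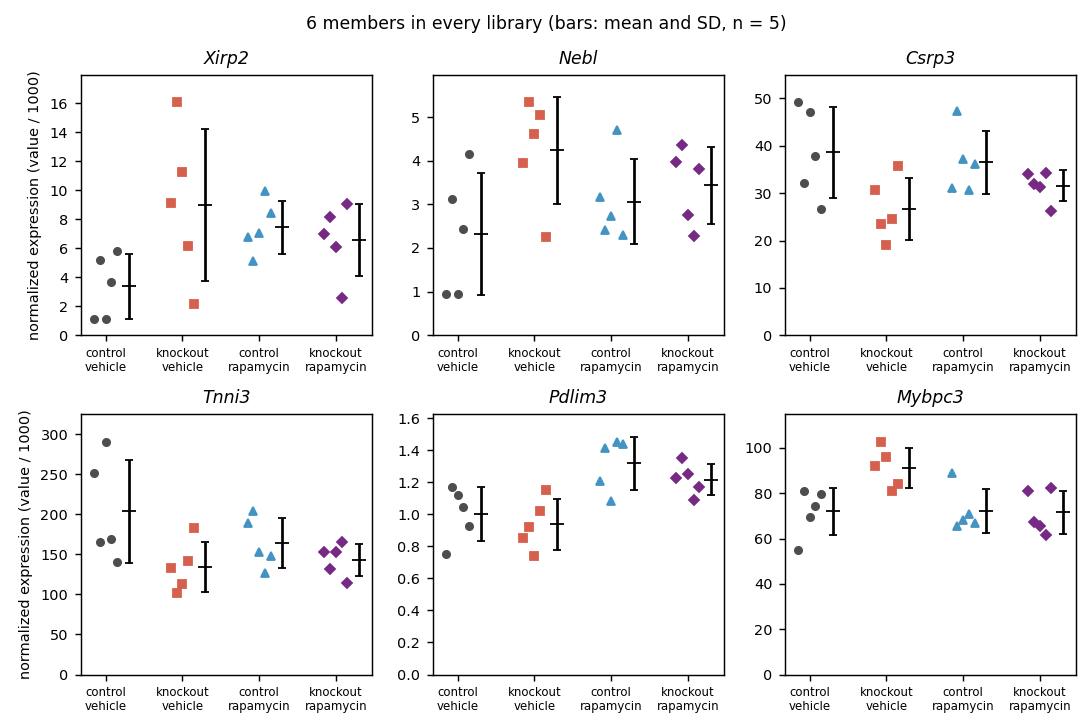
Normalized expression, divided by 1000 (linear axis from 0), of Xirp2, Nebl, Csrp3, Tnni3, Pdlim3 and Mybpc3 in every library by group, with the mean and SD of 5 libraries beside the points. The groups of each gene overlap, Xirp2 and Nebl have their lowest points in control vehicle, and Pdlim3 lies higher in most rapamycin than in most vehicle libraries.

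The drug comparison that came nearest to the threshold was that of Pdlim3, the actinin-associated LIM protein of the Z-disc. Its values were 752, 1173, 1118, 1046 and 926 in control vehicle and 1206, 1412, 1083, 1452 and 1438 in control rapamycin libraries. In knockout hearts they were 853, 922, 739.6, 1019.8 and 1151 under vehicle and 1227, 1349, 1251, 1088 and 1167 under rapamycin. Most rapamycin libraries lay above most vehicle libraries in either genotype, with overlap in both. The log2 change with rapamycin was 0.40 (SE 0.13, adjusted p = 0.328) in control and 0.39 (SE 0.13, adjusted p = 0.514) in knockout hearts, the smallest p-value of the members in each. In the 4 pools it was 0.44, 0.29, -0.05 and 0.63 in control and 0.66, 0.41, 0.44 and 0.14 in knockout hearts. Averaged over genotypes it was 0.40 (SE 0.09, adjusted p = 0.113), the lowest adjusted p of any member in that comparison. Without control vehicle 1 and 3 the average was 0.36 (SE 0.09, adjusted p = 0.209), and over 33 alternative fits it lay between 0.35 and 0.43, with adjusted p-values from 0.0282 to 0.250. The lowest of these came from the fit with the long-minus-short score as a covariate, where Pdlim3 passed at 0.39 (SE 0.09, adjusted p = 0.0282) and 322 genes were called in all. The interaction of Pdlim3 was -0.01 (SE 0.19, adjusted p = 0.978).

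In the same fit with the score as a covariate, other members had average changes with rapamycin that did not pass. They were 0.24 (SE 0.07, adjusted p = 0.0768) for Myoz2, 0.23 (SE 0.07, adjusted p = 0.0825) for Csrp3 and -0.23 (SE 0.07, adjusted p = 0.0887) for Mybpc3. Without the covariate these were 0.06, 0.10 and -0.17.

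Promoter windows of 300 bases, 250 before to 50 after the annotated start, were taken from RefSeq for 27 of the 32 members (38 windows, build GRCm38.p6); Myom2, Tcap, Cryab, Xirp1 and Trim55 had none in the table used. A MEF2 box was matched in 7 of the 38 windows (18.4%), against 3.19% of 32851 windows of all genes, and a CArG box, the site of serum response factor, in 8 (21.1%), against 1.63%. The M-CAT element CATTCC, read by TEAD factors, was matched in 13 windows (34.2%), against 14.7%. Both strands were searched, and no matches of different motifs overlapped in the members' windows. The members with a MEF2 box were Fhl2, Mybpc3, Myoz2, Synpo2l, Ttn and Xirp2, and those with a CArG box Actc1, Fhl2, Ldb3, Myl3, Myom1 and Nebl. M-CAT was matched for Flnc, Myl3, Mypn, Nebl, Pdlim3, Tmod1, Tnnc1, Tnnt2, Tpm1, Trim54, Trim63 and Ttn. Members with a given motif included genes of either direction in knockout hearts under vehicle, such as Xirp2 (1.47) and Myoz2 (-0.63) for the MEF2 box. These are matches of letters and not sites shown to be bound.

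The 250 bases before the start are shown for 3 members, 1 for each motif: Xirp2, with the largest log2 change of the members in knockout hearts under vehicle, Actc1, the most abundant thin filament gene per kilobase, and Pdlim3, the gene nearest to the threshold with rapamycin. The sequences read 5′ to 3′ on the strand of the gene and the capitals mark the motif.
The Xirp2 stretch lies at chr2:67445752-67446001 on the plus strand, and its MEF2 box begins at -74 from the start.
Xirp2: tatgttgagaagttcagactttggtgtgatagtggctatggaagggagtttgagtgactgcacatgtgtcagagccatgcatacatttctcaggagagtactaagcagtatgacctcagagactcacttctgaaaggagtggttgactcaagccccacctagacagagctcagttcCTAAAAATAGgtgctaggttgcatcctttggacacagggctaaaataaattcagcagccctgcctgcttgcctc
The Actc1 stretch lies at chr2:114052876-114053125 on the minus strand, and its CArG box begins at -47.
Actc1: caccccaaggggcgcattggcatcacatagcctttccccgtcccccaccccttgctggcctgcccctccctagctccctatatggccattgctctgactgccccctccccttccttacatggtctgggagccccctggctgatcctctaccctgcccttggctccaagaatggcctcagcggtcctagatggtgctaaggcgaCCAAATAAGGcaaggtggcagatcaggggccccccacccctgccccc
The Pdlim3 stretch lies at chr8:45885237-45885486 on the plus strand, with M-CAT at -201 on the reverse strand and at -11 on the forward strand.
Pdlim3: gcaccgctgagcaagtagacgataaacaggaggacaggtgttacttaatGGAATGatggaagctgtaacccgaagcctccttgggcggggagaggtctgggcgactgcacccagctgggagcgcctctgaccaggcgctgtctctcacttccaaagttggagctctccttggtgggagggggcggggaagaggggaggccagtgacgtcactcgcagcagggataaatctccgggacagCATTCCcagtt

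The direction of the members went with the length of their transcripts in 3 comparisons that used control vehicle. In knockout hearts under vehicle all 10 long members (at least 4871 bases) were higher, with a median log2 change of 0.61, and of the 11 short members (at most 2262 bases) 9 were lower, with a median of -0.25. All tested genes of the same classes had medians of 0.38 and -0.22, and 84.9% and 26.8% of them were higher. The 11 members in between had a median of -0.04 (all genes 0.07). For rapamycin in control hearts the long members were again all higher, with a median of 0.52 (all genes 0.32), and the short ones had a median of -0.16 (all genes -0.12). In the interaction all 10 long members were below 0, with a median of -0.43 (all genes -0.36). The comparisons that do not use control vehicle gave medians of the long members near 0, at 0.03 for knockout under rapamycin (all genes 0.03) and -0.05 for rapamycin in knockout hearts (all genes -0.04). A smaller length pattern was present there too. For knockout under rapamycin 8 of 11 short members were lower (median -0.09), and 29.8% of all short and 58.4% of all long genes were higher. For rapamycin in knockout hearts it was reversed, with 8 of 10 long members lower. Of all short and long genes, 53.1% and 41.1% were higher in that comparison.

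Without control vehicle libraries 1 and 3 the long members' median in knockout hearts under vehicle was 0.18 (all genes 0.11) with 8 of 10 higher, and the short members' median was -0.07 (all genes -0.05). For rapamycin in control hearts the long members' median was then 0.11 (all genes 0.04) with 7 of 10 higher, and for the interaction it was -0.13 (all genes -0.08). In the libraries themselves, the median deviation of the long members from their mean was -0.86 in control vehicle 1 and -1.39 in control vehicle 3, and that of the short members was 0.45 and 0.50. With the long-minus-short score as a covariate the knockout changes under vehicle were 0.23 for Xirp2, 0.18 for Nebl, -0.30 for Ttn, -0.15 for Csrp3, -0.13 for Tnni3 and -0.04 for Myl2. What sets this score apart in these libraries was not tested.

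**Figure D3:**
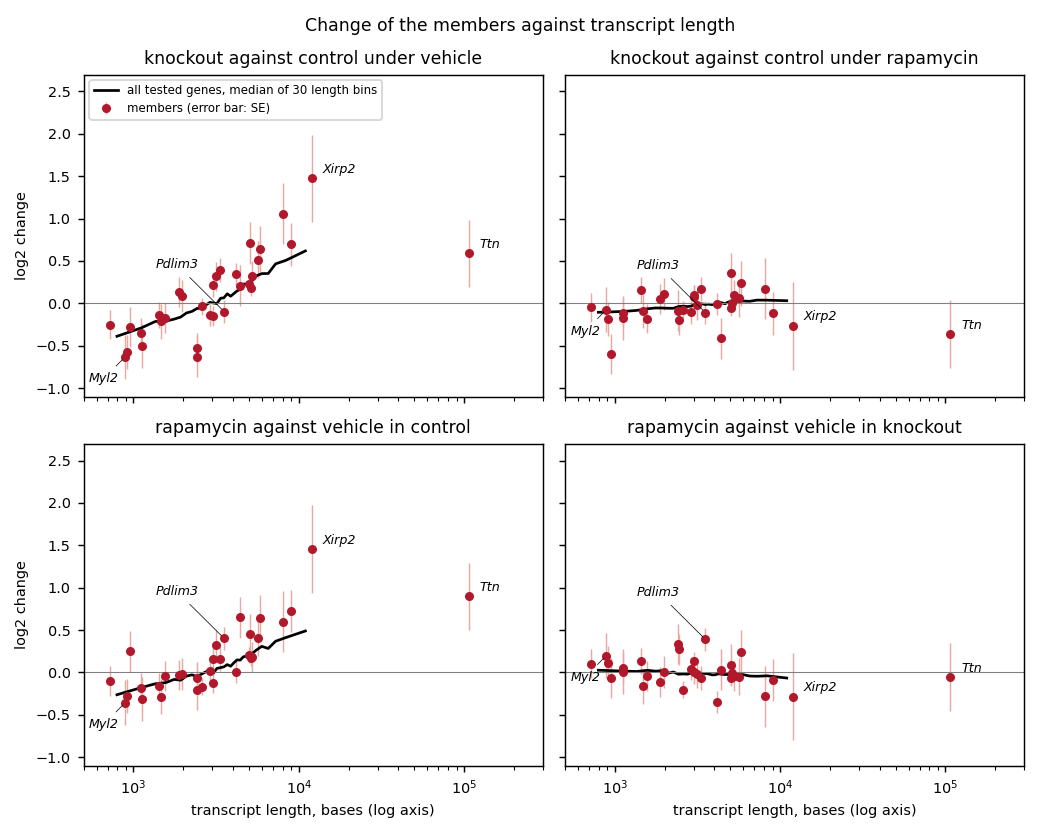
Log2 change (error bar: SE) of each member against the length of its longest coding transcript in bases (log axis), in 4 comparisons, with the median of all tested genes in 30 length bins as a line. In the left panels, which use control vehicle, members and line run from below 0 at short to above 0 at long transcripts. In the right panels the line stays nearer 0, though for knockout under rapamycin it rises from -0.11 in the shortest to 0.03 in the longest bin. Members there lie on both sides of 0. They range from -0.60 to 0.35 for knockout under rapamycin and from -0.35 to 0.39 for rapamycin in knockout hearts.

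**Figure D4:**
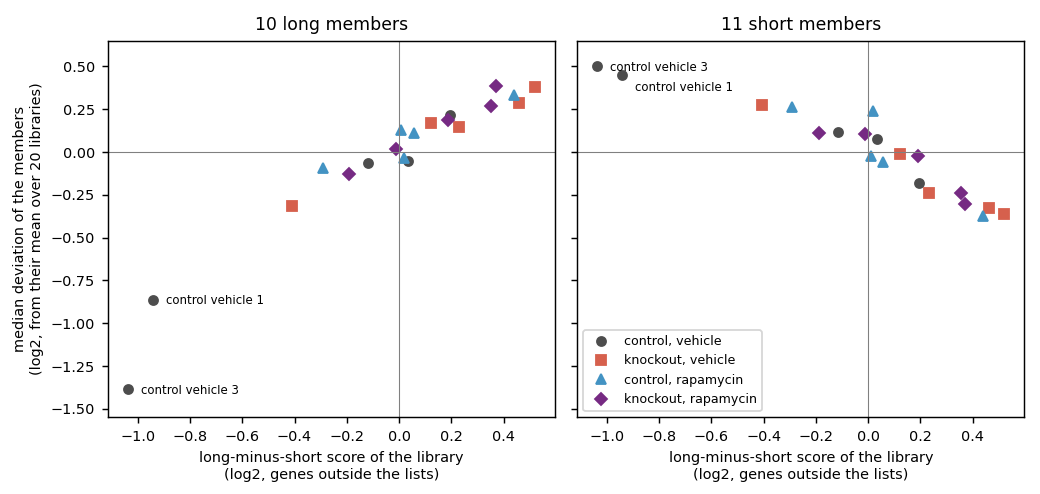
Median log2 deviation of the 10 long members (left) and the 11 short members (right) from their mean over 20 libraries, against the long-minus-short score of each library, computed from other genes. Control vehicle 1 and 3 lie far to the left, at scores of -0.94 and -1.04, low for the long and high for the short members.

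The call of members in knockout hearts under vehicle depended on single libraries. Without control vehicle 5, 12 members were called, 8 higher (Xirp2, Nebl, Xirp1, Myom2, Flnc, Myom1, Tnnt2 and Mybpc3) and 4 lower (Myl2, Myoz2, Tnni3 and Csrp3), among 3090 genes in all. Without knockout vehicle 5, 8 were called, 5 higher and 3 lower, among 2569 genes. The fit of all libraries tested 13548 genes and called 33 of them. Control vehicle 5 had the highest long-minus-short score of its group, at 0.20, and knockout vehicle 5 the lowest of its group, at -0.41. The part of these scores in the calls was not tested. Without any other library, and without control vehicle 1 and 3 together, 0 were called, with limma, and in the last fit 1 member, Pdlim5, had an unadjusted p under 0.05. Of the 32 members 13 (40.6%) differed in the same direction in all 4 pools for knockout under vehicle, 9 higher and 4 lower, near the 39.8% of all genes that did so. Each pool held 1 or 2 libraries of a group, with control vehicle 1 in pool 1 and control vehicle 3 the only control vehicle library of pool 3. The number was 5 members (15.6%, all genes 15.9%) for knockout under rapamycin, 2 (6.25%, all genes 15.5%) for rapamycin in control hearts, 6 (18.8%, all genes 20.3%) for rapamycin in knockout hearts and 5 (15.6%, all genes 23.0%) for the interaction.

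**Figure D5:**
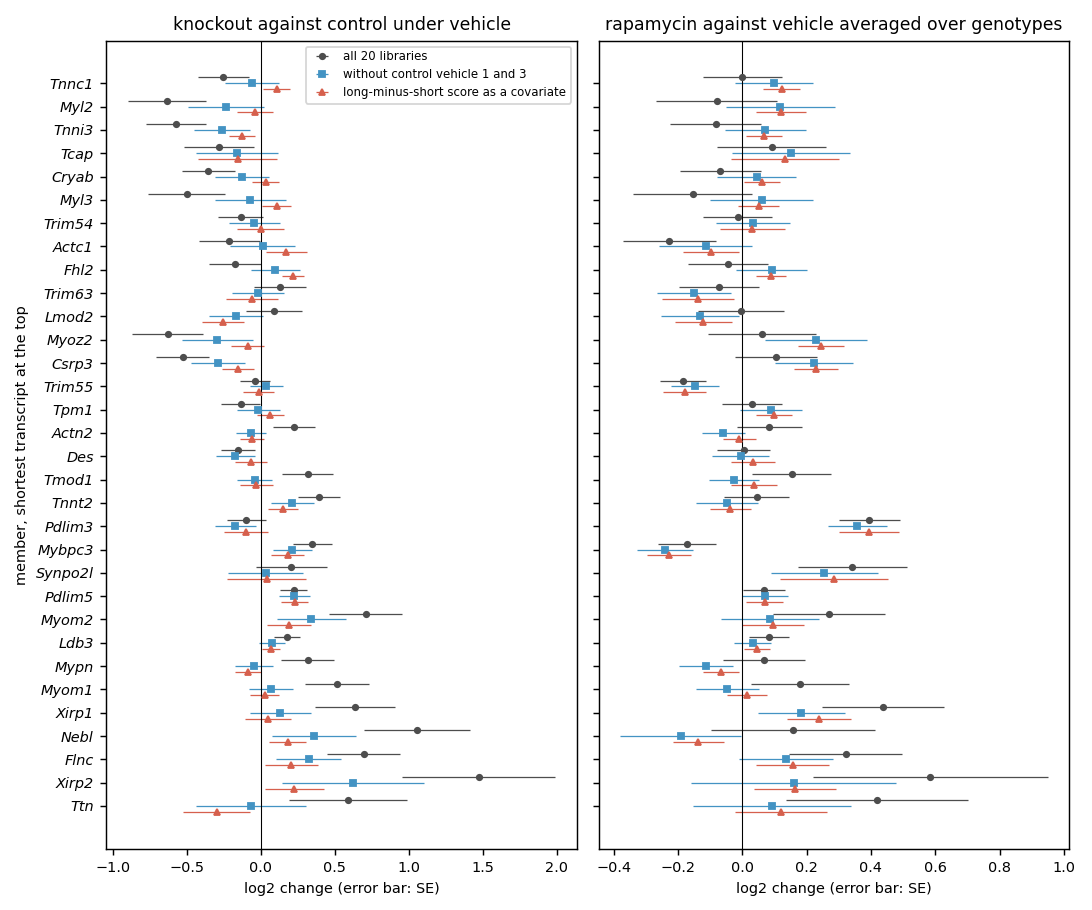
Log2 change (error bar: SE) of each member for knockout against control under vehicle (left) and rapamycin against vehicle averaged over genotypes (right), in the fit of all 20 libraries, without control vehicle 1 and 3, and with the long-minus-short score as a covariate. Most of the long members at the bottom of the left panel move towards 0 in both other fits, and Ttn and Mypn pass below it. Pdlim5 keeps nearly the same value there without control vehicle 1 and 3, and Pdlim3 keeps nearly the same value in the right panel.

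Levels per kilobase of transcript spanned a wide range in control vehicle hearts. Myl2 was highest, at 516637 ± 204130 units per kilobase (mean ± SD, n = 5), followed by Myl3 at 265682 ± 111532, Actc1 at 258840 ± 65503 and Tnni3 at 223447 ± 70302, and neighbours among these last 3 differed by less than either SD, whereas Myl2 lay above Myl3 by more than either SD. Tpm1 and Tnnc1 came next, at 114562 and 109878, and also lay within their SD. The lowest were Ttn at 423 ± 287, Nebl at 288 ± 173, Pdlim3 at 284 ± 47.5 and Xirp2 at 281 ± 185. All these means include control vehicle 1 and 3, in which long members were low and short members high. The order was not computed without those libraries. The value for Ttn rests on the longest coding transcript, of 106824 bases, and shorter isoforms would raise it. Together the members held 8.14% to 11.3% of the summed signal of a library, most in control vehicle 1 and 3. Spread within a group was widest in control vehicle, where the coefficient of variation had a median of 27.6% over the members and ran from 3.10% for Des to 67.8% for Ttn. The medians were 19.4% in knockout vehicle, 15.6% in control rapamycin and 15.3% in knockout rapamycin.

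A list of 101 other genes of sarcomere, Z-disc, costamere, intercalated disc and their upkeep was set beside the members. Of these 99 were measured and 94 tested, and 0 were called by limma in any comparison. In knockout hearts under vehicle 27 were higher and 7 lower at an unadjusted p under 0.05, which is 36.2% of them beside 31.8% of all genes, and their median log2 change was 0.21 (all genes 0.07). In the fit without control vehicle 1 and 3 it was 4 higher and 1 lower, 5.32% beside 6.75% of all genes, with a median of 0.07 (all genes 0.03). For rapamycin in control hearts 14 were higher and 1 lower, 16.0% beside 14.9% of all genes, and without those libraries 1 was higher, 1.06% beside 3.47%. By function, the median in knockout hearts under vehicle was 0.40 for 23 Z-disc and titin partners, 0.35 for 11 thick filament genes, 0.34 for 22 genes of costamere and disc, 0.17 for 8 regulators, 0.13 for 15 thin filament genes and 0.08 for 15 chaperones and turnover genes. These medians lay between 0.01 and 0.10 without control vehicle 1 and 3. The smallest p-value was that of Myh7, the slow myosin heavy chain, at 14569.5 ± 7292 in control and 28280.4 ± 7226 in knockout vehicle libraries (log2 change 1.10, adjusted p = 0.0799), and without control vehicle 1 and 3 the change was 0.48 (adjusted p = 0.688). Myh7 also had the smallest p in the interaction, at -1.04 (adjusted p = 0.523), or -0.42 (adjusted p = 0.999) without them. For rapamycin in control hearts it was that of Ankrd1, a stretch-induced titin partner, with a log2 change of 1.16 (adjusted p = 0.326), or 0.92 (adjusted p = 1.00) without them, and in knockout hearts that of Acta1, with -1.82 (adjusted p = 0.585). The co-chaperone Bag3 had 0.32 (adjusted p = 1.00) for knockout under rapamycin. Averaged over the other factor, the chaperone Dnajb6 had 0.28 (adjusted p = 0.0906) for knockout and the transcription factor Tbx20 0.35 (adjusted p = 0.251) for rapamycin, and these were 0.20 (adjusted p = 0.304) and 0.29 (adjusted p = 0.511) without control vehicle 1 and 3.

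Among markers of other cell types, the summed levels of the fibroblast and erythroid lists did not overlap between control and knockout vehicle. Those of the other lists overlapped. The 8 endothelial markers summed to 20879 to 43640 in control and 28974 to 33349 in knockout vehicle libraries. In the same order, 8 smooth muscle and mural markers summed to 19188 to 21107 and 16158 to 25794. For 6 of 7 macrophage markers it was 4186 to 5183 and 4956 to 7423. The summed level of 10 fibroblast markers, all measured, was 69789 to 86212 in control vehicle, 91169 to 159137 in knockout vehicle, 77761 to 102344 in control rapamycin and 98325 to 158628 in knockout rapamycin libraries. For 9 atrial markers, all measured, it was 3194 to 8996, 5117 to 70681, 2855 to 39686 and 10609 to 65525 in the same order, and Sln was at 0 in at least 1 library of knockout vehicle and of control rapamycin. For 4 of 6 erythroid markers it was 60591 to 155063, 13533 to 46552, 38852 to 100690 and 29692 to 104570. For 10 skeletal muscle markers, all measured, it was 103910 to 169831 in control vehicle, 78979 to 130463 in knockout vehicle, 65210 to 118932 in control rapamycin and 67125 to 115522 in knockout rapamycin libraries. Between 82.7% and 96.9% of that sum was Ckm, muscle creatine kinase, which heart expresses too. The other 9 summed to 3487 to 6895, 3745 to 13672, 3001 to 7219 and 2813 to 7488 in the same order. Medians in control and knockout vehicle were 112862 and 91329 for Ckm, 5380 and 10633 for Acta1, 917 and 1951 for Myh1, 50.3 and 119 for Myh4 and 145 and 238 for Casq1. Tnni2, at 67.0 and 27.4, and Mylpf, at 20.3 and 11.9, were lower in knockout vehicle as Ckm was. No gene of these lists was at 0 in all libraries. All these sums and medians for control vehicle include libraries 1 and 3, with their low long-minus-short scores, and were not taken without them. The part of these markers in the members' values was not tested.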

How the data were processed

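Poly(A) RNA of 20 ventricle samples was sequenced in 4 pools, each with libraries of every group, per the labels. The pools match the lane codes in the library names, so pool and lane cannot be told apart. The deposited values are an expression signal per gene made by the authors: RSEM estimates scaled to a common upper quartile, on the mouse build mm9, with Picard 1.64 and SAMtools, per the submitters' processing notes. The aligner is not given in the sources used here. RSEM divides shared reads between genes, and nothing in the labels says that strand was used, so paralogs and antisense pairs are uncertain. Low values were whole multiples of 1 step in 87.2% to 89.0% of cases within 0.05, too few to recover reads, so no count test was run.

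The values were analysed as log2(value + 1) in genes at 10 or more in at least 5 libraries (13548 genes), with limma 3.58.1 in R 4.3.3, an intensity trend, 1 mean per group and Benjamini-Hochberg adjustment over all tested genes. A fold change on this scale understates that of low genes. Data were simulated for knockout against control under vehicle (13411 genes). The fit recovered 75.3% of 97 genes changed by 1 on the log2 scale and 91.8% of 97 changed by 2. It made 7 false calls. These rates describe the simulated data only. The simulated noise was drawn independently for each gene and library, with the same spread of a gene in every group. It thus held neither the length shift shared across genes in some control vehicle libraries nor that group's wider spread. The rates are therefore not given as those of the measured comparison. Replicates are separate animals only as far as the submitters' text says so, and otherwise p-values measure only the spread between samples.

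The members, the gene lists and the alternatives were chosen with earlier results of these data known. Members named with values were 12 taken for their role and the 2 with the smallest p in each comparison, and log2 changes are given for the rest. Transcript lengths came from GENCODE M21 and promoters from RefSeq GRCm38.p6, by gene ID or symbol only, and no coordinates of mm9 were used. Alternatives were 13 other settings, among them a replicate block and the pool as a covariate, and 20 fits with 1 library left out. The fit of the other sarcomere genes without control vehicle 1 and 3 was added after seeing the data.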

Additional observations from a re-analysis of the deposited data

Results flagged for a closer look

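Of 128 sets of 5 values, 1 for each member and group, 5 held a library far from the other 4, where chance alone gives such a library in about 1 of 20 sets. Mybpc3 was at 89041.1 in control rapamycin 1, with the other 4 between 65485.1 and 70606.7. Fhl2 was at 66330.4 in knockout vehicle 5, with the others between 43528.8 and 49604.8. Des was at 75661.3 in control vehicle 3, with the others between 80070 and 81812.7. Cryab was at 43478 in control rapamycin 4, with the others between 64418.5 and 72827.7. Trim63 was at 8642.15 in knockout vehicle 3, with the others between 5164.67 and 5825.23.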

How the results depend on the processing

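The count of members called stayed at 0 in all 7 comparisons under every alternative run, except for 3 fits. For knockout under vehicle it was 12 without control vehicle 5, among 3090 genes called in all, and 8 without knockout vehicle 5, among 2569 (0 to 12 with 1 library left out). It was 1 for rapamycin averaged over genotypes with the long-minus-short score as a covariate. The members' median change for knockout under vehicle (0.11) was 0.213 after quantile normalization, 0.201 with an equal sum of the other genes, 0.0207 with a robust fit and array weights, 0.0290 with the score covariate, -0.0292 without control vehicle 1 and 3, and from -0.0113 to 0.191 with 1 library left out. For rapamycin in control hearts (0.09) it was 0.195 after quantile normalization and 0.155 with the equal sum. The interaction (-0.12) was at -0.212, -0.201 and, without control vehicle 1 and 3, 0.000504, and from -0.190 to -0.0832 with 1 library left out. For knockout averaged over drug arms (0.05) it was -0.0285 without control vehicle 1 and 3.

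Changes of knockout under vehicle turned direction for 9 of the 32 members without control vehicle 1 and 3 and for 12 with the score covariate. Both fits turned Ttn (-0.298 with the covariate, -0.0655 without the 2 libraries), Actc1 (0.172, 0.0127), Lmod2 (-0.257, -0.166), Tmod1 (-0.0317, -0.0399), Actn2 (-0.0577, -0.0647), Mypn (-0.0834, -0.0442), Fhl2 (0.220, 0.0980) and Trim63 (-0.0605, -0.0184, and from -0.0192, without control vehicle 1, to 0.257 with 1 library left out). Trim55 turned only without the 2 libraries (0.0388), and Myl3 (0.106), Tnnc1 (0.109), Tpm1 (0.0654) and Cryab (0.0324) only with the covariate, of these 2 fits. Quantile normalization turned Des (0.0310). Other settings were examined for direction only in the members named by rule. The cause was not tested. Deviations of same-numbered samples correlated from -0.515 to 0.427, with 10 of 30 pairs over 0.1. Samples of different numbers were not set beside them, so these values cannot decide whether the numbers pair samples. With the replicate block 0 members were called, 49 genes in all were called for knockout under vehicle (33 without it), and the members' median there was 0.11. For rapamycin averaged over genotypes the block called 5 genes in all (17 without it). Of all genes, knockout under vehicle also called 3 in a fit of only the groups compared, 4 without control vehicle 1 and 3, 6 with the score covariate, 12 in the robust fit and 56 with the pool as a covariate. Rapamycin averaged over genotypes called 0 with the pool, 4 without control vehicle 1 and 3, 35 in the robust fit and 322 with the score covariate. Knockout averaged over drug arms (60) called 11 without control vehicle 1 and 3, 31 with the score covariate, 37 with no filter and 131 in the robust fit. The robust fit called 14 genes for knockout under rapamycin (3) and 58 for rapamycin in knockout hearts (1), where the score covariate called 220. Depth is known only through the implied reads (11.5 to 21.1 M), so no counting interval is given.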
